A study of Rattus norvegicus with 32 samples.

Results

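The metallothioneins and the zinc transport genes measured beside them were followed in the left ventricle of septic rats, with and without the β1-adrenergic blocker landiolol. The genes were Mt1a, Mt2A and Mt3, the zinc sensor Mtf1, the zinc importers Slc39a14 and Slc39a8, and the zinc exporters Slc30a1 and Slc30a2. Every probe of the array whose gene name equalled one of these 8 names was used, which gave 8 of the 36174 distinct gene names of the array and 10 of its 45598 probes that were not controls. Mtf1 was read by 3 probes and each of the other 7 genes by 1, and Mt1a and Mt3 were each printed on 10 spots whose values were averaged. The probe of Mt1a carries the name Mt1 in the annotation of the female arrays. In 9 of the 10 probes the signal was well above background on all 32 arrays. The remaining probe, that of Slc30a2, was well above background on 10 arrays, did not pass the filter on dim probes and was not tested.

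The 32 arrays held the left ventricles of 32 young adult Wistar rats, collected 20 h after surgery. Each sex had 5 sham rats, 5 rats with CLP and 6 rats with CLP that were given landiolol. CLP stands for cecal ligation and puncture, which causes sepsis from the abdomen, and the CLP group received saline by infusion where the CLP plus landiolol group received landiolol in saline. Fluid load, analgesia with buprenorphine and a test of the excised heart's function ahead of tissue sampling were common to the groups, and the infusions held no antibiotic. A sham rat given landiolol was not among the groups, so landiolol is seen here in septic rats alone.

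Metallothioneins are small, cysteine-rich proteins that bind zinc and copper and scavenge oxidants. Mtf1 is a zinc-sensing transcription factor that binds metal response elements in the promoters of metallothionein genes and of Slc30a1, while glucocorticoids and interleukin 6 acting through Stat3 are further well-known inducers of Mt1a and Mt2A. Slc39 proteins carry zinc into the cytosol and Slc30 proteins carry it out of the cell or into vesicles, and a rise of Slc39a14 and of metallothioneins is a known part of the acute-phase response of the liver.

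Mt1a, Mt2A and Mt3 lie side by side. In the rn4 coordinates of the array files the probe of Mt1a is at chr19:11261631-11261690, that of Mt2A at chr19:11267834-11267893 and that of Mt3 at chr19:11284627-11284686, all on the minus strand, so that Mt1a and Mt2A are 6.2 kb apart and Mt2A and Mt3 16.8 kb apart. The other probes are at chr15:50703832-50703891 for Slc39a14, chr2:233403324-233403383 for Slc39a8, chr13:107983689-107983748 for Slc30a1 and chr5:153098295-153098354 for Slc30a2. The probes of Mtf1 are at chr5:144181945-144182004 (probe 1, the brightest), at chr5:144172266-144175534 (probe 2, whose 60 bases are spread over 3269 positions of the genome) and at chr5:144180236-144180295 (probe 3). The files give no exon for any of them. Probes of Mt1a and Mt2A shared at most 25 of 60 bases without gaps and a longest run of 7 bases.

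The sequence upstream of the transcript start was taken from RefSeq (GRCr8) for 7 of the 8 genes, that of Slc39a14 being only named here. The 250 bases before the start are shown for the 3 neighbouring metallothionein genes, which differed in their response, and for Slc30a1, a textbook target of Mtf1, each 5′ to 3′ on the strand of its gene. Capitals mark every match to the metal response element core, TGCACNC or TGCGCNC on either strand.
Mt1a, chr19:10832976-10833225, minus strand: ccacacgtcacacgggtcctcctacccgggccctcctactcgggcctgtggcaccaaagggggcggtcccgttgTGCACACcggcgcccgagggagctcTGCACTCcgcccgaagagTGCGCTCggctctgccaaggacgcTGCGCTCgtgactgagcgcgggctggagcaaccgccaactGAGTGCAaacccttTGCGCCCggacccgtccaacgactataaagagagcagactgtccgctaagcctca
Mt2A, chr19:10838709-10838958, minus strand: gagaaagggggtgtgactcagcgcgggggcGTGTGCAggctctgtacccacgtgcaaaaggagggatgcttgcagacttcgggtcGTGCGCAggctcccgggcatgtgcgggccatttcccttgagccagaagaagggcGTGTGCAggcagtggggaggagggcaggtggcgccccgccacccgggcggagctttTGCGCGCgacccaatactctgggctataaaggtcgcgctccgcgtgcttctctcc
Mt3, chr19:10856081-10856330, minus strand: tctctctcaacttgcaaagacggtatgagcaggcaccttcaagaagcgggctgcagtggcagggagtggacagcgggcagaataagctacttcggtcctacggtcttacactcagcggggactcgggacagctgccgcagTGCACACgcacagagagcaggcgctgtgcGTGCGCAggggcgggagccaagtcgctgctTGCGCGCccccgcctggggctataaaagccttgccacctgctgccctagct
Slc30a1, chr13:106021769-106022018, plus strand: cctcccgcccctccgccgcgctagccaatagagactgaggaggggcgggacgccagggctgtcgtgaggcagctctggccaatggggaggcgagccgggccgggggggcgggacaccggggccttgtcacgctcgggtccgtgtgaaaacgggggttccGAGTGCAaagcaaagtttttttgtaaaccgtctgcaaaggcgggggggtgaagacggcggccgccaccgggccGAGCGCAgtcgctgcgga

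The window of Mt1a held 6 cores, that of Mt2A 4, that of Mt3 3 and that of Slc30a1 2. Of 33469 windows of the same length, 20.6% held at least 1 core, 4.90% at least 2, 1.17% at least 3, 0.266% at least 4 and 0.0269% at least 6. Mtf1 had 2 cores in its own window, Slc39a8 had 0, and the 2 windows of Slc30a2 had 2 and 0. The full glucocorticoid response element, AGAACA and TGTTCT with 3 bases between them, matched in none of the 8 windows and in 0.0120% of all windows. The hexamer TGTTCT alone, sought on both strands and part of the full element, matched in the windows of Mtf1 and of Slc30a2 and in 17.5% of all windows, and the STAT site TTCNNNGAA, which reads alike on both strands, matched in that of Slc39a8 and in 7.67% of all windows. These matches describe letters in a short window and say nothing of what binds there.

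Levels below are log2 signals normalised within each sex. They can be compared between rats of 1 sex for 1 probe, but not between probes or between the sexes. Every array had between 34920 and 43155 spots well above background and no saturated spot. The arrays of males lay on 2 slides and those of females on 2 others, with every group on both slides of its sex, so sex and slide cannot be told apart. All female sham arrays lay in the first row of their slides and all female CLP plus landiolol arrays in the second row, and values with the row fitted are given for Mt1a, Mt2A and Slc39a14 and for Slc30a1 under landiolol vs CLP. All 6 cardiomyocyte markers examined, among them Myh6 and Tnnt2, were well above background on every array, which fits the labelled tissue. In tissue made of several cell types, fewer cells of a type and less RNA per cell cannot be told apart.

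**Figure D1:**
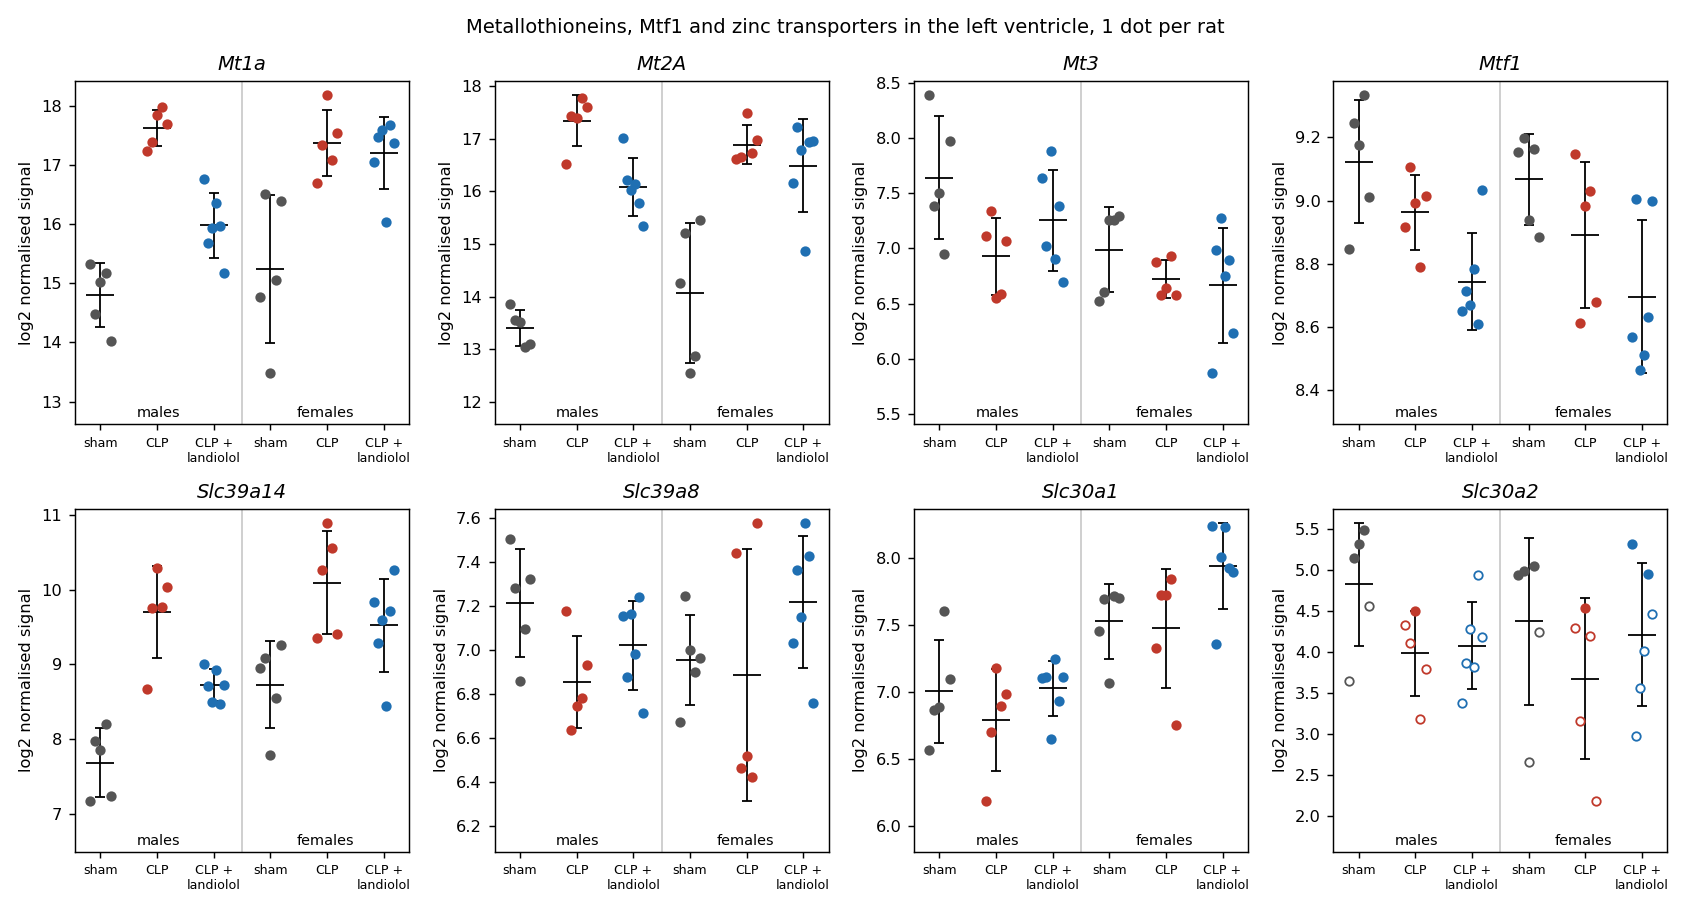
Log2 normalised signal of the brightest probe of each of the 8 genes, with 1 dot per rat, in sham (grey), CLP (red) and CLP plus landiolol (blue) groups of males and females. Bars are the mean and SD and open dots are arrays on which the probe was not well above background. Mt2A was between 13.04 and 13.86 in male sham rats and between 16.52 and 17.78 in male CLP rats.

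The comparison of CLP with sham asked how sepsis changed these genes. In males, Mt2A was 15.3-fold, Mt1a 7.06-fold and Slc39a14 4.04-fold up-regulated in the CLP group. Of the 9 member probes tested 3 passed the FDR of 1%, all upwards, against 7.81% of the 25864 probes tested in males. The median log2 fold change of the 9 probes was -0.16 against 0.01 over all probes.

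Mt2A, the main inducible metallothionein together with Mt1a, had levels of 13.86, 13.55, 13.52, 13.04 and 13.10 in the male sham rats. In the male CLP rats it had levels of 16.52, 17.44, 17.40, 17.78 and 17.60. All CLP rats were thus above all sham rats, by far more than the spread within either group. This was a log2 fold change of 3.93 (95% CI 3.33 to 4.54, n = 5 and 5, limma, adjusted p = 9.83e-07), and it was 3.41 on one slide and 4.47 on the other.

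Mt1a behaved alike in males. Its levels were 15.32, 14.48, 15.02, 15.17 and 14.02 in sham rats and 17.23, 17.38, 17.84, 17.97 and 17.68 in CLP rats. Groups without overlap were found for 3 member probes and for 12.3% of the probes tested. The rise of Mt1a was 2.82 on the log2 scale (95% CI 2.21 to 3.43, n = 5 and 5, limma, adjusted p = 1.95e-05). Slc39a14, which imports zinc as well as iron and manganese, had levels of 7.17, 7.97, 7.86, 8.20 and 7.24 in sham rats and 8.67, 9.75, 10.29, 9.77 and 10.04 in CLP rats. Replicate 1 of the CLP group was the lowest of its group in all 3 genes, and still above every sham rat. The rise of Slc39a14 was 2.01 on the log2 scale (95% CI 1.44 to 2.58, n = 5 and 5, limma, adjusted p = 1.42e-04). The calls of these 3 genes were the same under every alternative setting run and without any single array.

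Mt3, known as the metallothionein of the brain, went the other way without passing the test. Its mean level was 7.64 ± 0.56 in male sham rats and 6.93 ± 0.35 in male CLP rats (SD, n = 5 each), a log2 fold change of -0.71 (95% CI -1.29 to -0.12, limma, adjusted p = 0.0962). The male groups overlapped. Slc39a8, an importer of zinc and manganese, had a log2 fold change of -0.36 (95% CI -0.67 to -0.05, limma, adjusted p = 0.110). Slc30a1, the zinc exporter of the plasma membrane, had one of -0.21 (95% CI -0.64 to 0.21, limma, adjusted p = 0.547). For Mtf1, the sensor itself, the log2 fold changes were -0.16 for probe 1, 0.23 for probe 2 and -0.20 for probe 3, with adjusted p between 0.410 and 0.682 (limma). In none of these 4 genes did the male CLP and sham groups separate.

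In females, Mt2A was 7.07-fold up-regulated in the CLP group and was the single member probe of 9 that passed the FDR of 1%, against 3.63% of the 25394 probes tested. The median log2 fold change was -0.05 over the 9 probes and -0.01 over all probes. Mt2A had levels of 14.26, 15.21, 12.54, 12.87 and 15.46 in female sham rats and 16.61, 16.65, 17.49, 16.72 and 16.98 in female CLP rats. The groups did not overlap, but the sham rats were spread over a range of levels about as wide as the gap between the group means. The rise was 2.82 on the log2 scale (95% CI 1.67 to 3.97, n = 5 and 5, limma, adjusted p = 0.00396). The call was lost without female sham replicate 3 (2.43, adjusted p = 0.0101), without female sham replicate 4 (2.53, adjusted p = 0.0113) and without female CLP replicate 3 (2.67, adjusted p = 0.0121). When limma also fitted the slide row it was 2.85 (adjusted p = 0.0206), which is by construction the difference within the first row, with 3 CLP and 5 sham rats. On the separate slides it was 2.60 and 2.98.

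The other 2 genes called in males did not pass the FDR of 1% in females, although no female CLP rat was below any female sham rat in either. Mt1a had levels of 14.77, 16.51, 13.48, 15.06 and 16.39 in female sham rats and 16.70, 17.34, 18.18, 17.08 and 17.54 in female CLP rats. Mt1a differed by 2.12 on the log2 scale (95% CI 1.08 to 3.17, n = 5 and 5, limma, adjusted p = 0.0128). SAM, the test of the study's methods, did call Mt1a here. It passed the FDR without female sham replicate 2 (2.44, adjusted p = 0.00615), without female sham replicate 5 (2.41, adjusted p = 0.00842) or without female CLP plus landiolol replicate 4 (2.13, adjusted p = 0.00969). The female sham rats with the highest Mt1a, replicates 2 and 5, also had the highest Mt2A and the highest Slc39a14 of their group. Slc39a14 had levels of 8.95, 9.09, 7.80, 8.55 and 9.26 in female sham rats and 9.36, 10.26, 10.90, 10.56 and 9.41 in female CLP rats. Its log2 fold change was 1.37 (95% CI 0.58 to 2.15, limma, adjusted p = 0.0290). With the slide row fitted the values were 2.16 for Mt1a (limma, adjusted p = 0.0488) and 1.44 for Slc39a14 (limma, adjusted p = 0.0796). Groups without overlap were thus found for 3 member probes, and for 8.32% of the probes tested in females.

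Of the remaining female values none passed the test. The log2 fold changes were -0.27 for Mt3, -0.07 for Slc39a8 and -0.05 for Slc30a1, and -0.18, 0.11 and -0.32 for probes 1, 2 and 3 of Mtf1. The 95% CI was -0.57 to 0.43 for Slc39a8 and -0.52 to 0.41 for Slc30a1.

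**Figure D2:**
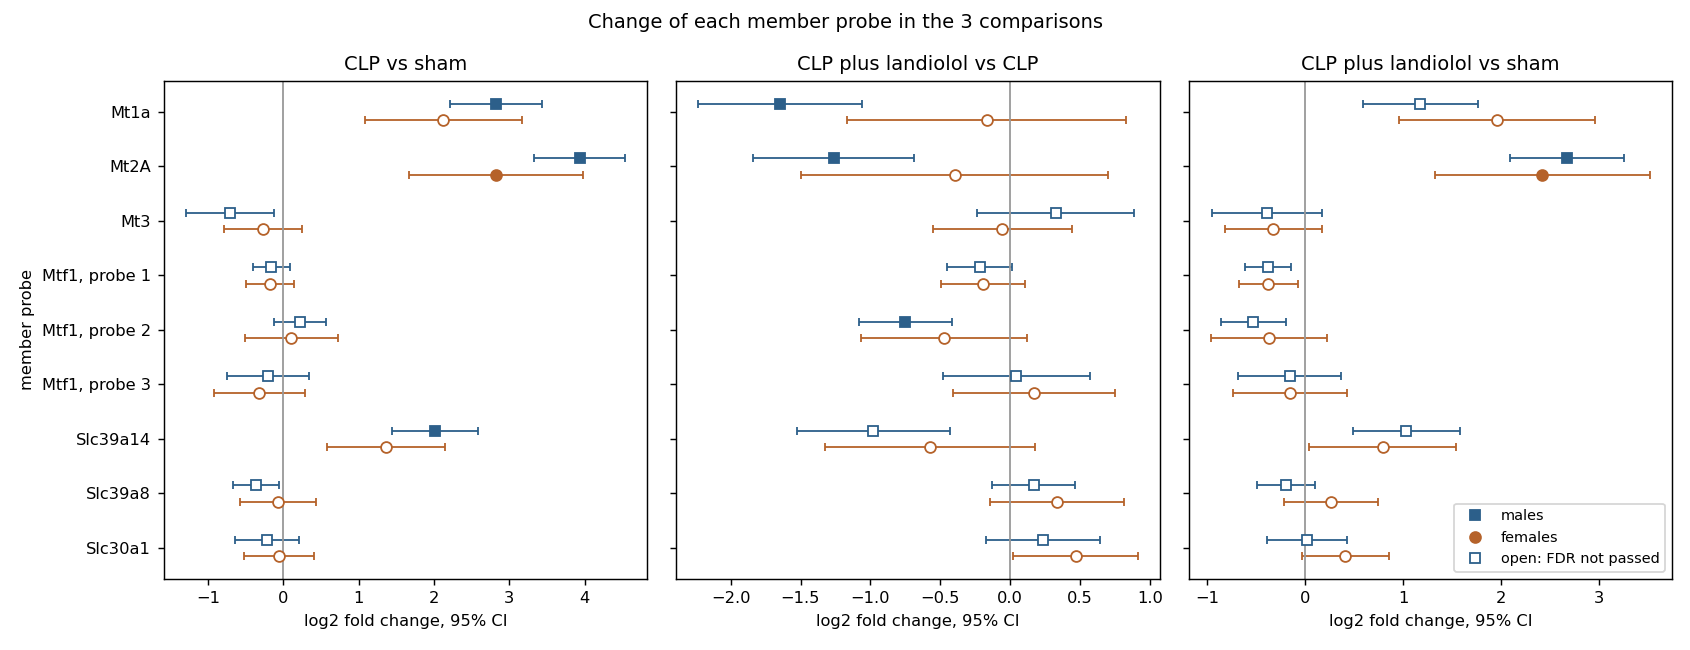
Log2 fold change of the 9 member probes that passed the filter, with the 95% CI of limma, in CLP vs sham, CLP plus landiolol vs CLP and CLP plus landiolol vs sham, for males (squares) and females (circles). Filled symbols passed the FDR of the comparison. In the first panel Mt1a, Mt2A and Slc39a14 lie to the right of 0 in both sexes, and in the second panel 3 male probes are filled, all to the left of 0.

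The comparison of CLP plus landiolol with CLP asked what the β-blocker changed in septic hearts. In males, Mt1a was 3.13-fold and Mt2A 2.40-fold lower in the CLP plus landiolol group than in the CLP group. Of the 9 member probes 3 passed the FDR of 5%, all downwards, namely Mt1a, Mt2A and probe 2 of Mtf1, against 1.56% of the 25864 probes tested. The median log2 fold change was -0.22 over the 9 probes and -0.01 over all probes.

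In the male CLP plus landiolol group the level of Mt1a ranged from 15.18 over a median of 15.95 to 16.76, so that every rat was below every CLP rat. Groups without overlap were found for 2 member probes and for 2.26% of the probes tested. The change of Mt1a was -1.64 on the log2 scale (95% CI -2.23 to -1.06, n = 6 and 5, limma, adjusted p = 0.00757), and it was -1.36 on one slide and -1.99 on the other. The call was the same under every alternative setting run and without any single array.

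Mt2A ranged from 15.34 over a median of 16.08 to 17.01 in the same group. Replicate 1, at 17.01, lay within the range of the CLP group, and the other 5 rats were below all CLP rats. The change of Mt2A was -1.26 on the log2 scale (95% CI -1.84 to -0.69, n = 6 and 5, limma, adjusted p = 0.0297), with -0.70 on one slide and -1.94 on the other. The call was lost when any of the male CLP replicates 2, 3, 4 and 5 or of the male CLP plus landiolol replicates 2, 3, 5 and 6 was left out, with log2 fold changes between -1.46 and -1.12 and adjusted p between 0.00648 and 0.101 over all 16 arrays left out in turn.

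The probes of Mtf1 differed from each other. Probe 2 had levels of 6.79, 6.58, 6.98, 6.71 and 6.86 in male CLP rats and from 5.55 over a median of 5.99 to 6.46 with landiolol, without overlap. Its log2 fold change was -0.75 (95% CI -1.08 to -0.42, n = 6 and 5, limma, adjusted p = 0.0263). The call was lost without male CLP replicate 3, 4 or 5 or without male CLP plus landiolol replicate 2 or 3, with adjusted p between 0.0579 and 0.0821. Probe 1, the brightest, had a log2 fold change of -0.22 (95% CI -0.45 to 0.02, limma, adjusted p = 0.377) and probe 3 one of 0.04 (95% CI -0.48 to 0.57, limma, adjusted p = 0.945). A lower level of Mtf1 was therefore read by 1 of its 3 probes.

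Slc39a14 ranged from 8.47 over a median of 8.72 to 9.01 in male CLP plus landiolol rats. These rats were below 4 of the 5 CLP rats and above all sham rats. The log2 fold change against CLP was -0.98 (95% CI -1.52 to -0.43, limma, adjusted p = 0.0717) and did not pass the FDR. It passed without male CLP replicate 1, the CLP rat with the lowest level (-1.24, adjusted p = 0.00520), and it was also called with normexp background correction and by SAM, the test of the study's methods. Mt3, Slc39a8 and Slc30a1 had log2 fold changes of 0.33, 0.17 and 0.24, with adjusted p between 0.584 and 0.592 (limma).

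In females, 0 of the 9 member probes passed the FDR of 5% in this comparison, against 0.0945% of the 25394 probes tested, and SAM also called 0. In 0 of the 9 did the groups stand apart without overlap, against 1.15% of the probes, and 1 had an unadjusted p under 0.05, against 9.34%. The median log2 fold change was -0.17 over the 9 probes and 0.03 over all probes. Mt1a ranged from 16.04 over a median of 17.42 to 17.68 in female CLP plus landiolol rats, with a log2 fold change of -0.17 (95% CI -1.17 to 0.83, limma, adjusted p = 0.956). Mt2A ranged from 14.86 over a median of 16.87 to 17.23, with a log2 fold change of -0.40 (95% CI -1.50 to 0.70, limma, adjusted p = 0.881). Replicate 4 was the lowest rat of this group in Mt1a, Mt2A and Slc39a14, and the other 5 rats lay within the range of the CLP group in Mt1a. Both intervals are wide. That of Mt2A includes the change measured in males (-1.26), and that of Mt1a does not include its male change (-1.64). The difference between the sexes is tested further below.

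The probe with an unadjusted p under 0.05 was that of Slc30a1. Its levels ranged from 7.36 over a median of 7.96 to 8.23 in female CLP plus landiolol rats and were 7.33, 7.72, 7.72, 7.84 and 6.75 in female CLP rats. The difference was 0.47 on the log2 scale (95% CI 0.02 to 0.91, limma, adjusted p = 0.506), and 0.64 with the slide row fitted (limma, adjusted p = 0.823). For Slc39a14 the log2 fold change was -0.57 (95% CI -1.32 to 0.18, limma, adjusted p = 0.661). Within the second row of the slides, with 6 CLP plus landiolol and 2 CLP rats, the values were -0.11 for Mt1a, -0.36 for Mt2A and -0.46 for Slc39a14. On the separate slides they were 0.23 and -0.51 for Mt1a, -0.054 and -0.68 for Mt2A and -0.69 and -0.56 for Slc39a14.

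The comparison of CLP plus landiolol with sham asked what remained of the response under the blocker. It shares the sham arrays with the comparison of CLP with sham, so the values stand side by side and are not independent. Mt2A was 6.37-fold up-regulated in males and 5.36-fold in females, and it was the single member probe of 9 that passed the FDR of 1% in either sex, against 4.15% of the probes tested in males and 5.25% in females. Groups without overlap were found for 2 member probes in males, Mt2A and Slc39a14, and for 0 in females, against 7.79% and 9.74% of the probes. The median log2 fold change over the 9 probes was -0.16 in males and 0.26 in females, against 0.00 over all probes in both.

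In males the log2 fold change of Mt2A was 2.67 (95% CI 2.10 to 3.25, n = 6 and 5, limma, adjusted p = 2.10e-05), and every rat of the CLP plus landiolol group was above every sham rat. In females it was 2.42 (95% CI 1.32 to 3.52, n = 6 and 5, limma, adjusted p = 0.00632), and replicate 4 of the CLP plus landiolol group lay within the range of the sham rats. When the slide row was fitted as well, the female value was 2.48 (limma, adjusted p = 0.393), where 0.0788% of the probes were called in place of 5.25%. Since female sham and CLP plus landiolol arrays shared no row, a value within a row could not be had. The female call was also lost when any of sham replicates 1, 3 and 4 or of CLP plus landiolol replicates 1, 2, 3, 5 and 6 was left out, with log2 fold changes between 2.03 and 2.77 and adjusted p between 0.00177 and 0.0193 over the 16 arrays left out in turn.

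Mt1a and Slc39a14 stayed short of the FDR of 1%. SAM, as run here with 100 permutations, called Mt1a in both sexes and Slc39a14 in males. The study's methods name SAM for the other 2 comparisons and not for this one. Mt1a had log2 fold changes of 1.18 in males (95% CI 0.59 to 1.76, limma, adjusted p = 0.0132) and 1.95 in females (95% CI 0.96 to 2.95, limma, adjusted p = 0.0129). It passed without male sham replicate 1 (1.30, adjusted p = 0.00949) or male CLP plus landiolol replicate 6 (1.34, adjusted p = 0.00514) in males, and in females without sham replicate 2 (2.27, adjusted p = 0.00599), sham replicate 5 (2.24, adjusted p = 0.00811) or CLP plus landiolol replicate 4 (2.19, adjusted p = 0.00642). With the slide row fitted the value of Mt1a was 1.22 in males (limma, adjusted p = 0.00573) and 2.05 in females (limma, adjusted p = 0.462). Slc39a14 had log2 fold changes of 1.04 in males (95% CI 0.49 to 1.58, limma, adjusted p = 0.0180) and 0.79 in females (95% CI 0.04 to 1.54, limma, adjusted p = 0.163), the latter being 0.98 with the slide row fitted (limma, adjusted p = 0.684). The male value of Slc39a14 passed without male CLP replicate 1 (1.04, adjusted p = 0.00334). Probe 1 of Mtf1 had log2 fold changes of -0.38 in males (limma, adjusted p = 0.0405) and -0.37 in females (limma, adjusted p = 0.103). Those of the other probes of Mtf1 were -0.52 and -0.16 in males and -0.36 and -0.15 in females.

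Set in order, the mean level of Mt2A in males was 13.41 ± 0.34 in sham, 16.08 ± 0.55 in CLP plus landiolol and 17.35 ± 0.49 in CLP rats (SD, n = 5, 6 and 5), and each step between neighbours passed its FDR. For Mt1a the male means were 14.80 ± 0.54, 15.98 ± 0.54 and 17.62 ± 0.31 in the same order, and the step from sham to CLP plus landiolol did not pass. In females, CLP plus landiolol and CLP rats were neighbours that could not be separated, with means of 16.49 ± 0.88 and 16.89 ± 0.37 for Mt2A and of 17.20 ± 0.61 and 17.37 ± 0.55 for Mt1a. Female sham rats had means of 14.07 ± 1.33 for Mt2A and 15.24 ± 1.25 for Mt1a, the widest spread of any group in both genes.

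The difference between the sexes was itself tested as an interaction on all 32 arrays. Of the 26490 probes tested 0 passed the FDR of 5% in any of the 3 comparisons (0%), and so 0 of the 9 member probes did. An unadjusted p under 0.05 was found for 1 member probe, in landiolol vs CLP. It was that of Mt1a, where the female change exceeded the male change by 1.48 on the log2 scale (95% CI 0.32 to 2.63, limma, unadjusted p = 0.0145, adjusted p = 0.969). For Mt2A the difference was 0.85 in the same comparison (95% CI -0.39 to 2.10, limma, adjusted p = 0.969) and -1.13 in CLP vs sham (95% CI -2.43 to 0.16, limma, adjusted p = 0.9999). A call in males and none in females for Mt1a is thus not shown to be a difference between the sexes.

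Slc30a2, which loads zinc into vesicles, was the dimmest of the probes and is given by its detection alone. It was well above background on 3 of 5 sham, 1 of 5 CLP and 0 of 6 CLP plus landiolol arrays in males, and on 3 of 5, 1 of 5 and 2 of 6 in females. Of the other metallothioneins, Mt4 was well above background on 3 of the 32 arrays and was not tested, and Mt1m was not found by name on the array.

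Other genes of zinc transport, copper handling and metallothionein control were examined by the brightest probe of each. Of 10 further Slc39 genes that passed the filter in males, 2 rose in CLP vs sham and 0 fell, and of 12 in females 2 rose and 0 fell, against 7.81% and 3.63% of all probes called. They were Slc39a1, an importer of the plasma membrane, and Slc39a6, a relative that imports zinc, in both sexes. Slc39a1 rose by 0.90 in males and 0.67 in females on the log2 scale, and Slc39a6 by 0.73 and 0.85, with adjusted p between 2.92e-04 and 0.00254 (limma). Both were higher than sham in females given landiolol as well (0.62 and 0.66), which was 2 of 12 against 5.25% of all probes called. In males given landiolol their log2 fold changes from sham were 0.52 and 0.39 (limma, adjusted p = 0.0165 and 0.0274), without overlap between the groups. There 0 of the 10 passed the FDR of 1%. Of all probes in that male comparison 4.15% were called and 7.79% had groups without overlap. Of 6 further Slc30 genes tested, Slc30a7, which moves zinc into the secretory pathway, rose in male CLP rats (0.59, limma, adjusted p = 0.00493). This was 1 of 6 against 7.81% of all probes called. In each of the other 5 comparisons 0 of 6 passed, against 0.0945% to 5.25% of all probes. The medians of the further Slc39 genes were 0.18 in males and -0.18 in females in CLP vs sham, against 0.01 and -0.01 over all probes.

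In the copper list of 8 genes, 2 rose and 0 fell in male CLP vs sham, and 0 passed in females, against 7.81% and 3.63% of all probes. The copper importer Slc31a1 had a log2 fold change of 0.51 (limma, adjusted p = 0.00628). Cp, the copper-carrying ferroxidase ceruloplasmin, had one of 1.26 (limma, adjusted p = 0.00299). In male CLP plus landiolol vs sham Cp was the 1 gene of 8 that passed (1.46, limma, adjusted p = 0.00123), against 4.15% of all probes called. No gene of the list passed in landiolol vs CLP in either sex, against 1.56% of all probes in males and 0.0945% in females. Medians in CLP vs sham were 0.34 in males and 0.19 in females, against 0.01 and -0.01 over all probes.

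Among 8 regulators of metallothionein genes, 4 rose and 0 fell in male CLP vs sham, against 7.81% of all probes called. Stat3, the transcription factor downstream of interleukin 6, rose by 1.59 on the log2 scale (limma, adjusted p = 3.10e-05) and Il6r, the receptor subunit, by 1.56 (limma, adjusted p = 2.26e-04). Il6st, the signalling subunit, rose by 0.83 and Nfe2l2, a regulator of antioxidant genes, by 0.53, with adjusted p of 0.00541 and 0.00917 (limma). Il6 itself had a log2 fold change of 0.57 (95% CI -0.78 to 1.92, limma, adjusted p = 0.624). Nr3c1, the glucocorticoid receptor, had one of -0.38 (limma, adjusted p = 0.0132), with every CLP rat below every sham rat. With landiolol vs CLP in males 2 of the 8 fell, against 1.56% of all probes called, the same direction as Mt1a and Mt2A. Il6r fell by 1.38 (limma, adjusted p = 0.00496) and Stat3 by 0.82 (limma, adjusted p = 0.0236). Il6st had a log2 fold change of -0.02 there (limma, adjusted p = 0.971). A link of these genes to the metallothioneins was not tested. In females Stat3 was the 1 of 8 that passed in CLP vs sham (1.06, limma, adjusted p = 0.00157), against 3.63% of all probes. It was also the 1 of 8 in CLP plus landiolol vs sham (0.78, limma, adjusted p = 0.00736), against 5.25%. In landiolol vs CLP 0 of 8 passed in females, against 0.0945%. Il6r had a log2 fold change of 1.18 in female CLP vs sham (95% CI 0.47 to 1.88, limma, adjusted p = 0.0358), without overlap between the groups. In female landiolol vs CLP Il6r had one of -0.92 (95% CI -1.60 to -0.25, limma, adjusted p = 0.341). In male CLP plus landiolol vs sham Stat3 (0.78) and Il6st (0.82) passed, 2 of 8 against 4.15% of all probes. The medians of the list were 0.55 in male and 0.17 in female CLP vs sham, against 0.01 and -0.01 over all probes.

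Of 4 further targets attributed to Mtf1, Hamp, the gene of the iron hormone hepcidin, was the 1 that passed, with log2 fold changes from sham of 3.64 and 2.51 in male CLP and CLP plus landiolol rats and of 3.28 and 3.31 in the same female groups (limma, adjusted p between 3.04e-04 and 0.00535). Gclc, Ndrg1 and Selenow did not pass in any comparison. In landiolol vs CLP 0 of 4 passed in either sex, against 1.56% of all probes in males and 0.0945% in females. Of all probes 7.81% and 4.15% were called in male CLP and CLP plus landiolol vs sham, and 3.63% and 5.25% in females. In CLP vs sham 2 of the 4 had a positive change in either sex. The medians of the 4 were -0.008 in males and -0.004 in females.

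**Figure D3:**
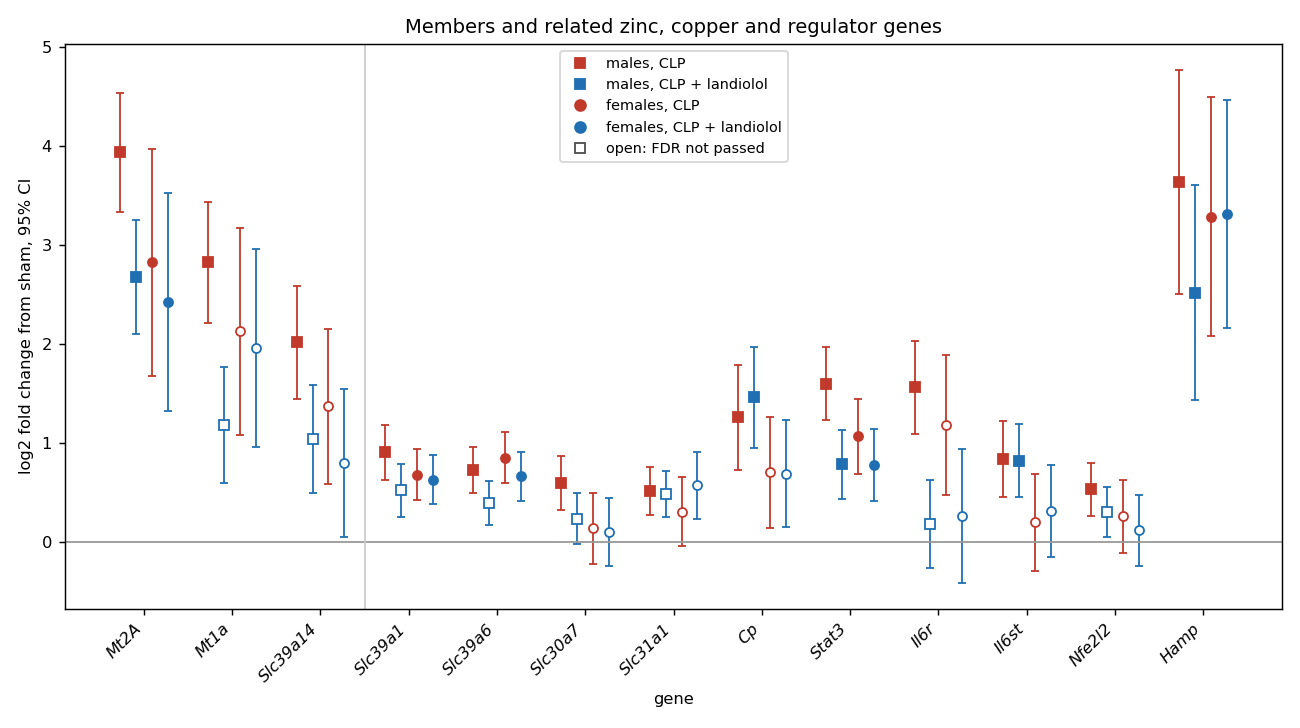
Log2 fold change from sham with the 95% CI of limma for Mt2A, Mt1a and Slc39a14 and, right of the line, for the 10 other zinc, copper and regulator genes that passed the FDR in a comparison, in CLP (red) and CLP plus landiolol (blue) rats of both sexes. Filled symbols passed the FDR of 1%. In males the red symbol lies above the blue one for Mt1a, Mt2A, Stat3 and Il6r, whose landiolol vs CLP change passed the FDR, with 3.93 and 2.67 for Mt2A and 1.56 and 0.18 for Il6r.

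The genes whose 4 changes from sham lay nearest to those of a member were sought among 11311 named genes, by the root mean square of the 4 differences on the log2 scale. Nearest to Mt2A were Chi3l1 (0.43), Csf3 (0.52) and Hamp (0.53), and nearest to Mt1a were Net1 (0.25), Cdh16 (0.27) and Spred3 (0.37). Nearest to Slc39a14 were Pla2g4a (0.09), Slc3a2 (0.13) and Slc1a1 (0.19). Slc30a1 had Slc38a9 (0.03), Med9 (0.04) and Hip1 (0.04) nearest. The 4 changes share the sham arrays of each sex, so the distances are a description.

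Markers of white blood cells and other cell types were examined as well. In the neutrophil list 2 of 5 genes passed the filter, S100a8 and S100a9, and Mmp8, Ngp and Cd177 were well above background on at most 1 array. S100a8 was well above background on 0 of 5 male and 1 of 5 female sham arrays, and S100a9 on 3 of 5 and 2 of 5. Both were well above background on all CLP and CLP plus landiolol arrays, through which alone they passed the filter, so no test against sham is given. In landiolol vs CLP 0 of them passed in either sex. The mean level of the 5 markers ranged from 2.53 to 2.83 in male sham, from 3.42 to 4.59 in male CLP and from 4.16 to 4.89 in male CLP plus landiolol rats. The female ranges were 2.34 to 3.32, 3.62 to 4.33 and 3.79 to 5.26. These means take in Mmp8, Ngp and Cd177 as well, and they were not tested.

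Of 5 macrophage and monocyte markers 2, Cd68 and Adgre1, rose in CLP vs sham and in CLP plus landiolol vs sham in both sexes. Of all probes 7.81% in males and 3.63% in females were called in CLP vs sham. In CLP plus landiolol vs sham 4.15% and 5.25% were. In CLP vs sham 4 of the 5 markers had a positive change in either sex. In landiolol vs CLP 0 of the 5 markers passed, against 1.56% and 0.0945% of all probes. Their mean level ranged from 9.06 to 9.56 in male sham, 9.81 to 10.61 in male CLP and 9.37 to 10.51 in male CLP plus landiolol rats, and from 8.85 to 9.54, 9.53 to 10.13 and 10.01 to 10.51 in the female groups. Of 4 fibroblast markers Col1a1 and Col3a1 fell in male CLP vs sham, by 2.11 and 2.05 on the log2 scale (limma, adjusted p = 0.00154 and 0.00129). The mean level of the list was 13.17 to 13.85 in male sham and 11.98 to 12.99 in male CLP rats, and 0 of 4 passed in females. Of all probes 7.81% were called in male and 3.63% in female CLP vs sham. Dcn, of the same list, had log2 fold changes of 0.87 in male and 0.77 in female CLP vs sham (limma, adjusted p = 0.0467 and 0.0751). In the endothelial list Kdr, 1 of 5 genes, rose in female CLP plus landiolol vs sham (0.87, limma, adjusted p = 0.00841), against 5.25% of all probes called. In the other comparisons 0 of 5 passed. Of 3 erythroid markers 1 was tested in males and 2 in females, and of 3 hepatocyte markers 1 in either sex. No cardiomyocyte, erythroid or hepatocyte marker that was tested passed in any comparison, where 0.0945% to 7.81% of all probes were called. The median log2 fold change of the tested erythroid markers was 2.12 in female and -0.02 in male CLP vs sham. In landiolol vs CLP it was -1.37 in females and 0.49 in males. The mean level of these markers ranged from 6.70 to 13.92 in female CLP and from 6.77 to 8.04 in female sham rats. Of the 3 hepatocyte markers, Alb, the liver's albumin, was well above background on 0 of 32 arrays, Apoa1 on 9 and Ttr on 32. The part of these cells in the levels of Mt1a, Mt2A and Slc39a14 was not tested.

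Rats of the same group differed enough in Mt2A for a last question, whether the genes moved together within groups. For each of the 32 rats the deviation of Mt2A from the mean of its group was set against that of 5 other genes, with a two-sided permutation test within groups. Mt2A and Mt1a went together, with r = 0.84 and rho = 0.75 (n = 32, permutation p = 1e-05, the smallest that 100000 permutations can give, and 3e-05, adjusted over the 5 pairs 5e-05 and 1.5e-04). Leaving out the 2 rats farthest from the median of Mt2A gave r = 0.77, and within the sexes r was 0.70 in males and 0.89 in females (n = 16 each). Mt2A and Slc39a14 had r = 0.61 and rho = 0.49 (n = 32, permutation p = 6.6e-04 and 0.00825, adjusted 0.00165 and 0.0206), r = 0.43 without the same 2 rats, and r = 0.41 in males and 0.69 in females. The relation of Mt2A with Slc39a14 was thus weaker without the rats at the extremes, and the difference between the sexes was not tested. For Mtf1 (r = 0.06), Slc39a8 (-0.06) and Slc30a1 (0.02) the permutation p adjusted over the pairs was 0.934 for each (n = 32). Within the sexes r for Mtf1 was -0.42 in males and 0.24 in females (n = 16 each), and these were not tested. All values of a rat come from 1 array, so its brightness is shared by the genes.

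**Figure D4:**
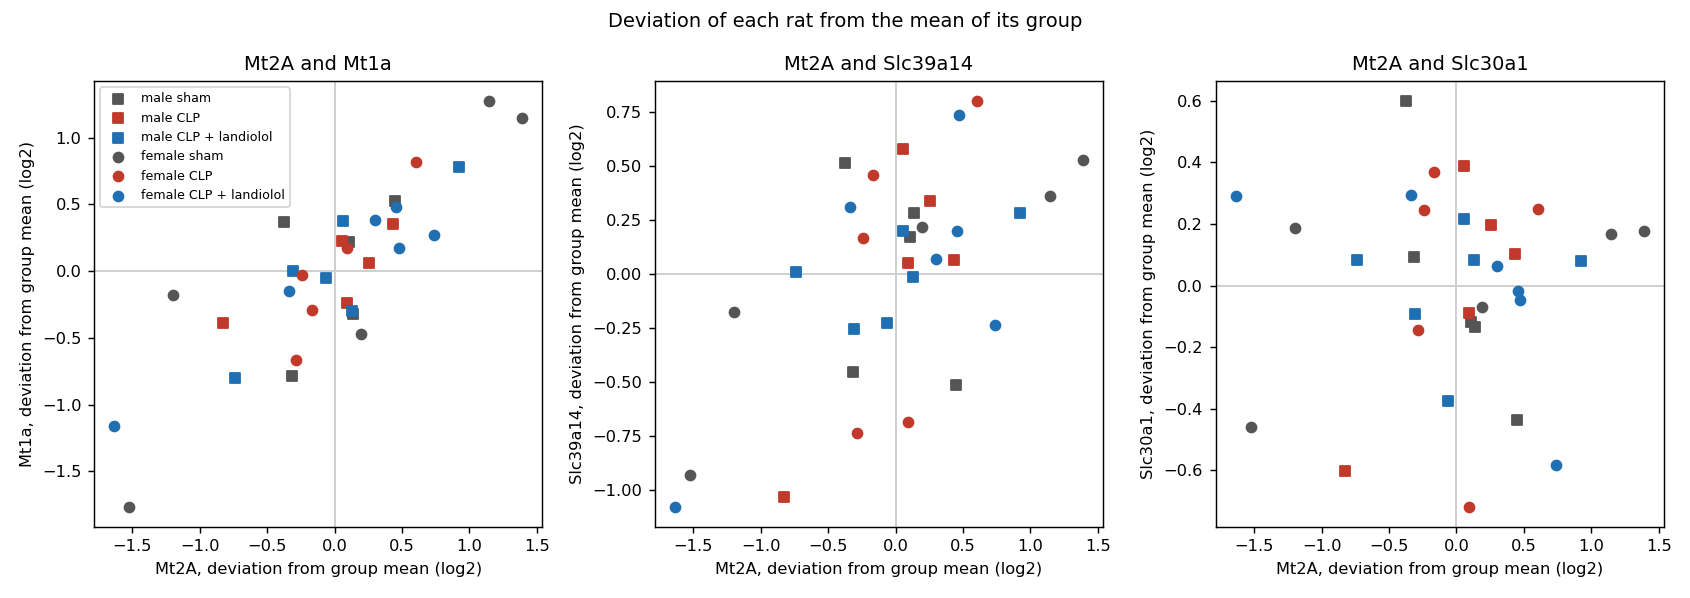
Deviation of each rat from the mean of its group on the log2 scale, Mt2A on the horizontal axis and Mt1a, Slc39a14 or Slc30a1 on the vertical axis, with squares for males, circles for females and colours for sham (grey), CLP (red) and CLP plus landiolol (blue). Points of Mt1a rise with Mt2A (r = 0.84), those of Slc39a14 less tightly (r = 0.61), and those of Slc30a1 show no slope (r = 0.02).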

How the data were processed

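Total RNA of the left ventricle of 32 rats was hybridised to 1-colour Agilent rat arrays, 1 rat per array, and p-values measure the spread between these rats. The authors deposited the output of Agilent Feature Extraction 10.5, per the labels, whose processed intensity is background-subtracted and detrended for every spot, and a table of log2 quantile-normalised values. The files of 1 of the 2 female slides name another protocol of that software than the other 3 slides. Coordinates (rn4) and gene names are those of the files, and 11067 probes are named differently in the male and female files.

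Outlier spots were left out, log2 processed intensities were averaged over spots and quantile-normalised within each sex, and a probe was kept where, in any group, 80% or more of the arrays had it well above background. The 16 arrays of a sex were fitted together with limma 3.58.1 (R 4.3.3), with Benjamini-Hochberg adjustment over all probes kept, at an FDR of 1% (CLP vs sham, CLP plus landiolol vs sham) or 5% (CLP plus landiolol vs CLP, and the interaction of sex on 32 arrays). The study's methods used SAM, run here with 100 permutations as an alternative. In simulated data with 200 of 25835 probes shifted, limma recovered 41.0% at a shift of 1 on the log2 scale in male CLP vs sham. At a shift of 2 it recovered 82.5%. In female CLP vs sham these values were 34% and 82.5%. The data held more changed probes, with 2020 of 25864 called in male CLP vs sham, so the recovery is not the power in the data. The number of arrays limits the precision.

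Co-variation was tested in Python 3.11.15 with numpy 2.4.6 and scipy 1.17.1. Every probe of the 8 genes is reported and the brightest over the 32 arrays stands for a gene. Genes of other lists are named where their brightest probe passed an FDR, and some that did not pass are named beside them. For each of 4 members 3 nearest genes are named. The genes, lists and tests were chosen with earlier results of these data known. The choices varied were the normalisation (to the 75th percentile), the background (normexp, offset 50, or the raw mean intensity), the filter, the arrays in the fit, the prior of limma (trended), slide and row as terms, both sexes normalised together, the authors' table, SAM, exchanged FDR levels and leaving out each array. Values within a slide and within a row, and the alternatives for co-variation, were added after seeing the data.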

Additional observations from a re-analysis of the deposited data

How the results depend on the processing

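The 3 member probes called in male CLP vs sham, the 0 in female CLP plus landiolol vs CLP and the 0 in each interaction of sex stayed at these counts under every alternative run, single arrays left out included. In male CLP plus landiolol vs CLP the 3 calls became 1 with exchanged FDR levels and 1 with only the groups compared, 2 without a filter (Mt2A lost), 4 with normexp or SAM (Slc39a14 gained), and 1 to 4 with an array left out. In male CLP plus landiolol vs sham the 1 call became 2 with normexp, the raw mean signal, only the groups compared, a trended prior or the row as a term, 3 with SAM and 5 with exchanged FDR levels, and it was 1 to 2 with an array left out. In female CLP vs sham the 1 call became 2 with normexp, the raw mean signal, a trended prior or SAM, 3 with exchanged FDR levels, and 0 without a filter, with only the groups compared or with the row as a term. In female CLP plus landiolol vs sham it became 2 with normexp, the raw mean signal, a trended prior, SAM or exchanged FDR levels and 0 under the same 3 settings. Both female counts were 0 to 2 with an array left out. The cause of these shifts was not tested.

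Of 837 log2 fold changes under other settings 800 kept direction and call, 9 lost and 17 gained a call and 11 turned sign, and of 1728 with an array left out 1625, 24, 10 and 69 did. No value that had passed a test turned sign. With the row as a term, Slc30a1 in female CLP vs sham became 0.063 and probe 2 of Mtf1 in female CLP plus landiolol vs sham 0.18. In the authors' table probe 3 of Mtf1 became -0.059 in female CLP plus landiolol vs CLP. For female minus male changes, probe 2 of Mtf1 became 0.0049 with normexp in CLP vs sham. Probe 3 became 0.063 in CLP vs sham and -0.043 in CLP plus landiolol vs CLP with scaling to the 75th percentile, -0.0023 with normexp and -0.088 in the authors' table in the latter, and in CLP plus landiolol vs sham -0.090 with normexp, -0.050 with the raw mean signal and -0.098 in the authors' table.

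With an array left out, female CLP plus landiolol vs CLP ranged from -0.34 to 0.063 for Mt1a, -0.18 to 0.10 for Mt3 and -0.026 to 0.40 for probe 3 of Mtf1. Female CLP vs sham ranged from -0.015 to 0.31 for probe 2 of Mtf1, -0.17 to 0.13 for Slc30a1 and -0.24 to 0.044 for Slc39a8. In males, probe 3 of Mtf1 ranged from -0.13 to 0.18 in CLP plus landiolol vs CLP and Slc30a1 from -0.088 to 0.17 in CLP plus landiolol vs sham. Female minus male ranges in CLP plus landiolol vs sham were -0.65 to 0.067 for Mt2A, -0.12 to 0.24 for Mt3, and -0.059 to 0.072 and -0.13 to 0.16 for probes 1 and 3 of Mtf1. They were -0.047 to 0.087 and -0.070 to 0.36 for these probes in CLP plus landiolol vs CLP, and -0.084 to 0.050, -0.24 to 0.088 and -0.35 to 0.078 for probes 1, 2 and 3 in CLP vs sham.

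For co-variation, Mt2A with Mt1a and with Slc39a14 passed under every setting run. The correlation of Mt2A with Slc30a1 became -0.0652 with scaling to the 75th percentile, -0.0096 with normexp and -0.0175 with the raw mean signal. With an array left out it ranged from -0.139 to 0.118, that with Mtf1 from -0.0470 to 0.163 and that with Slc39a8 from -0.138 to 0.0680. No paired analysis was possible because the labels give no replicate numbers.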
